A study of Mus musculus with 6 samples.

Results

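Interferon-stimulated genes are the genes that cells switch on after a type I, II or III interferon has bound its receptor. A fixed list of 44 such genes was read from the deposited table of 78409 mouse genes by gene symbol, and all 44 were found, each in 1 row. They were divided by their known roles into 9 sensors of foreign or misplaced nucleic acid, 4 transcription factors, 22 antiviral effectors and 9 modifiers and regulators. The cells were nephrogenic stroma, a population of connective-tissue cells that surrounds the forming nephrons of the kidney. They were released with pancreatin and collagenase from pooled kidneys at embryonic day 18 (CD1 mice, wild-type) and sorted for the surface receptor PDGFRa in a medium with the kinase inhibitor Y27632. They were then cultured for 18 h on coverslips coated with the silicone PDMS, in medium with fetal bovine serum, penicillin and streptomycin. Coverslips had been incubated with bovine fibronectin at 500 ng/mL (low adhesion, 3 libraries) or 50000 ng/mL (high adhesion, 3 libraries), and both substrates were sampled once in every one of 3 litters. Neither group was given interferon according to the labels, and adhesion itself is not measured in these files.

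Double-stranded RNA in a cell is detected by sensors such as RIG-I and MDA5, and misplaced DNA by other sensors. Both kinds of sensor lead to the making of interferon beta. The interferon binds the receptor chains IFNAR1 and IFNAR2, the kinases JAK1 and TYK2 phosphorylate STAT proteins, and these join IRF9 to form the factor ISGF3. ISGF3 binds the interferon-stimulated response element, a DNA motif with repeated GAAA, in front of its target genes. Many targets encode antiviral proteins, and several encode parts of the same pathway, so that sensors, factors and effectors are all partly under its control.

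The counts of the 6 libraries summed to 12596249 to 13508257. Levels are given below as CPM, the usual count scaled to a common library size (here the normalised one), and 1 count stood for 0.074 to 0.0794 CPM of the library totals as deposited. All 10 listed markers of renal stroma were detected. Their summed level was 5506 to 6298 CPM at low and 5342 to 6301 CPM at high adhesion, with Pdgfra at 17.2 to 33.8 CPM over the libraries. Of these 10 markers 8 passed the test below as lower at high adhesion, beside 4.83% of all tested genes, and 1, Vim, as higher, beside 4.71%. Vim held most of the sum, at 3068 to 4110 CPM, and the median log2 fold change of the 10 was -0.31. In these bulk libraries fewer cells of a type and less RNA per cell cannot be told apart.

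RefSeq promoter windows of build GRCm38.p6, from 250 bases before to 50 bases after a gene's start, were found for 34 of the 44 members, and for several there was more than 1 start. The response element core was searched on both strands as 2 copies of GAAA with any 2 bases between them (on the other strand, TTTC with the same gap). It was present in 18 of the 34 members (52.9%) and in 3.99% of the 27025 genes with a window. Windows with at least 2 matches, overlapping ones counted separately, were 9 of 40 for the members and 0.225% of all 32851 windows. The gamma-activated site TTCNNNGAA was present in 9 of the 34 members (26.5%) and in 9.55% of all genes. A match is a description of the sequence and shows no binding. The following stretches lie before the gene start and are shown because they belong to genes the results turn on. They are written 5′ to 3′ on the gene's strand, with the element core in capitals.
Isg15: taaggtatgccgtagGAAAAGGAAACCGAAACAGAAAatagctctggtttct
Ifit1: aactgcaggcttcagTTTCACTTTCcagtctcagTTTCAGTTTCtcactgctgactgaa
Ifit3: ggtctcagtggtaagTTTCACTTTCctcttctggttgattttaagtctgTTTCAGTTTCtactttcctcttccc
Ifit3b: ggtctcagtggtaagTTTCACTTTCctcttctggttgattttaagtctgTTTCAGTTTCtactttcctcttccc
Rsad2: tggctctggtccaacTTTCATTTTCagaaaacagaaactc
Bst2: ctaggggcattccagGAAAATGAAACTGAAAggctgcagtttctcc
Gbp3: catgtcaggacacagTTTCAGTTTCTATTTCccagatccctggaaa
Ifitm2: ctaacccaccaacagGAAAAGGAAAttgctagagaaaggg
In GRCm38.p6 these stretches are chr4:156200860-156200911 on the minus strand for Isg15, chr19:34640770-34640828 on the plus strand for Ifit1, chr19:34583358-34583431 and chr19:34607754-34607827 on the plus strand for Ifit3 and Ifit3b, chr12:26456548-26456587 on the minus strand for Rsad2, chr8:71537572-71537617 on the minus strand for Bst2, chr3:142559984-142560029 on the plus strand for Gbp3 and chr7:140955983-140956022 on the minus strand for Ifitm2. The Isg15 stretch holds 3 overlapping matches and those of Bst2 and Gbp3 hold 2 each. The stretches of Ifit3 and Ifit3b did not differ in any of their 74 bases. The windows of Ifitm2 and Rsad2 hold 1 match each, and Rsad2 passed the adhesion test whereas Ifitm2 did not. The other genes shown passed. Ddx60, not shown, has 2 matches and did not pass (edgeR adjusted p = 0.162). The genes shown were picked and not drawn by a rule, so the share of them that passed is no measure of the element.

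The first comparison asked how these genes differ between the adhesion levels within litters. High adhesion went with a lower level of most of them. Of the 44 members 42 passed the filter on low counts and were tested, and 28 of these were lower at high adhesion at an adjusted p of 0.05 (edgeR quasi-likelihood fit with a litter term, adjusted over the 14834 genes tested). That is 66.7% of the tested members, beside 4.83% of all tested genes called lower. No tested member was called higher, beside 4.71% of all tested genes. At an unadjusted p of 0.05 in edgeR 1 member was higher, and DESeq2 and limma-voom called none higher. The median log2 fold change of the 42 was -0.60, a 1.51-fold lower level, beside -0.00 for all genes tested. Falls of at least 1.5-fold among called genes numbered 19 of the 42, beside 0.991% of all tested genes, and 1 of the 42, Gbp3, fell at least 2-fold, beside 0.189%. The 2 members left untested were Mx1 and Oas3, at 0.152 to 1.15 and 0.242 to 1.24 CPM over the libraries. Without the replicate block none of the 42 was called, beside 0.243% of all tested genes, and none had an unadjusted p under 0.05 in edgeR, whereas DESeq2 with the block called 12, beside 1.34% of all genes called lower by it. The p-values thus rest on the changes within 3 litters, which were themselves far apart in level.

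**Figure D1:**
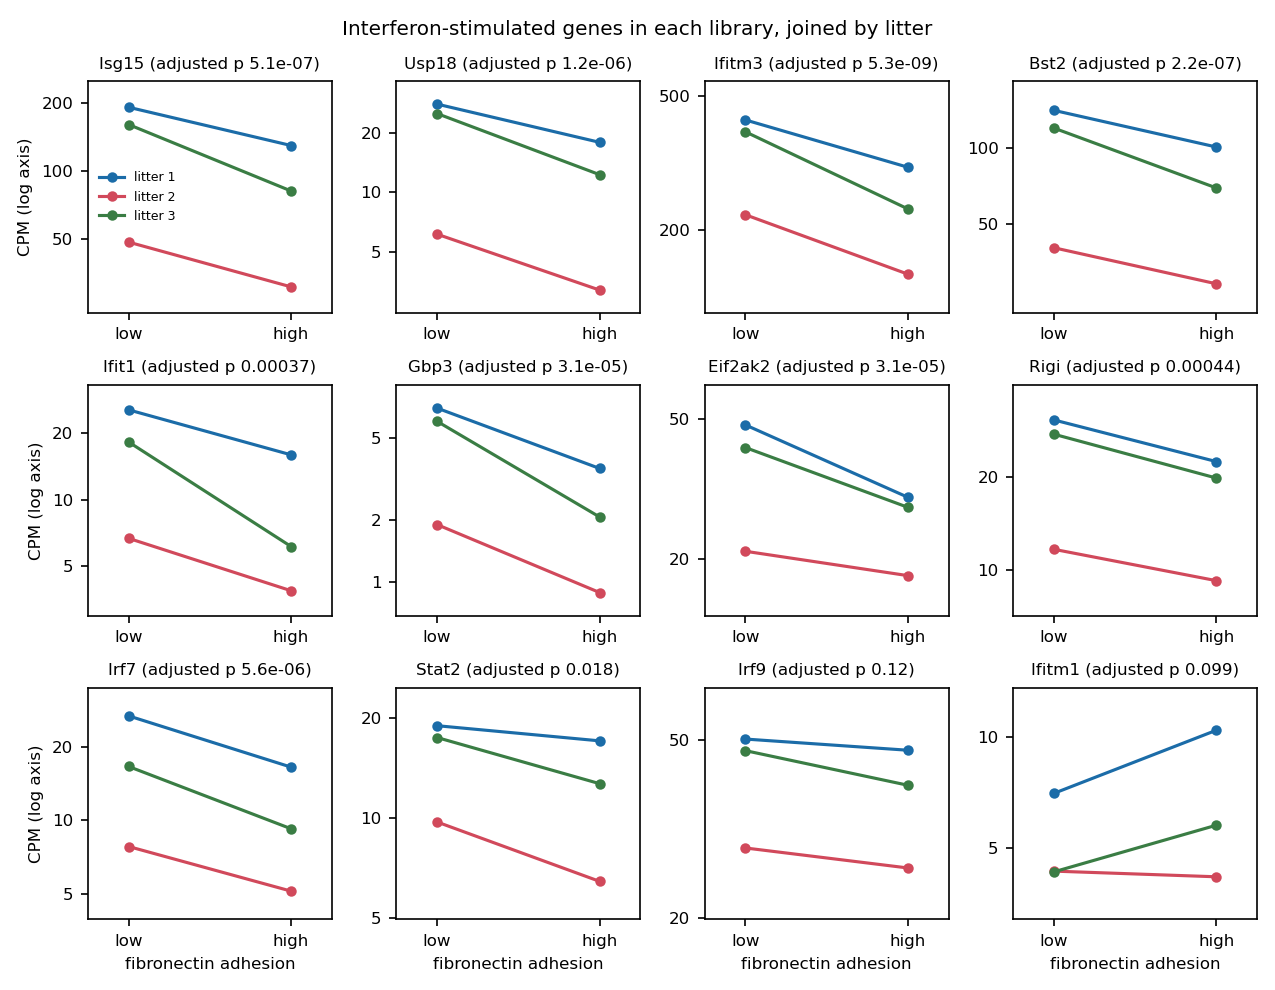
CPM of 12 members on a log axis at low and high adhesion, with the 2 libraries of each litter joined by a line and the edgeR adjusted p above each panel. For Isg15 the lines run from 192 to 130, from 48.6 to 30.8 and from 161 to 81.8 CPM in litters 1, 2 and 3; litter 2 lies lowest at each adhesion level in every panel but that of Ifitm1 at low adhesion.

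Among the sensors 4 of 8 tested members fell and none was called higher, with a median log2 fold change of -0.56. Eif2ak2 (ENSMUSG00000024079) encodes PKR, a kinase that stops translation when it binds double-stranded RNA. It stood at 48.1, 21.1 and 41.5 CPM in litters 1, 2 and 3 at low adhesion and at 30.0, 18.0 and 28.1 CPM at high adhesion. Every litter was lower at high adhesion, while the groups overlapped because litter 2 was low on both substrates. The log2 fold change was -0.53 ± 0.08 (standard error, n = 3 each, edgeR adjusted p = 3.06e-05). Rigi (ENSMUSG00000040296), the gene of the RNA helicase RIG-I, was at 30.7, 11.7 and 27.6 CPM at low and 22.5, 9.26 and 19.9 CPM at high adhesion. It was lower at high adhesion in 3 of 3 litters, by 1.35-fold in the fit (edgeR adjusted p = 0.000445). Ifih1 (ENSMUSG00000026896) encodes MDA5, the sensor of long double-stranded RNA, and went from 6.49, 3.04 and 6.59 CPM to 4.66, 1.85 and 4.14 CPM. Its groups also overlapped, with each litter lower on the high substrate (log2 fold change -0.60 ± 0.15, edgeR adjusted p = 0.00956). Oas1a (ENSMUSG00000052776), an enzyme of the 2′-5′ oligoadenylate synthetase family that activates RNase L, went from 7.79, 2.36 and 5.45 CPM to 4.74, 1.45 and 3.63 CPM. Its log2 fold change of -0.67 ± 0.15 passed (edgeR adjusted p = 0.00481), but not without litter 1 (edgeR adjusted p = 0.0777). Ifih1 did not pass without litter 3 (edgeR adjusted p = 0.104).

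The other 4 tested sensors lay between 0.322 and 2.48 CPM and did not pass. Dhx58, which encodes the RIG-I-like protein LGP2, had a log2 fold change of -0.74 ± 0.31 (edgeR adjusted p = 0.164). In litter 1 it was at 2.44 and 2.48 CPM, whereas in litter 3 it was at 2.42 and 0.518 CPM, and without litter 1 it passed (log2 fold change -1.55, edgeR adjusted p = 0.00645). The helicase gene Ddx60 had a log2 fold change of -0.78, the Z-nucleic acid sensor gene Zbp1 one of -0.30 and Oas2 one of -0.32. Oas2 turned to 0.34 without litter 3. Oas3 was at 0.242 to 1.24 CPM and was not tested.

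Of the 4 transcription factors 3 fell, with a median log2 fold change of -0.39. The largest change was that of Irf7 (ENSMUSG00000025498), the factor that amplifies the making of type I interferons. It was at 26.7, 7.83 and 16.6 CPM at low and 16.5, 5.15 and 9.25 CPM at high adhesion. The low adhesion value of litter 2 lay below the high adhesion values of litters 1 and 3, so the groups overlapped although each litter fell. The fitted fall was 1.66-fold (log2 fold change -0.73 ± 0.09, n = 3 each, edgeR adjusted p = 5.58e-06). Stat2 (ENSMUSG00000040033), the STAT that carries ISGF3's activation domain, was at 19.0, 9.73 and 17.5 CPM at low and 17.1, 6.44 and 12.7 CPM at high adhesion (log2 fold change -0.36 ± 0.10, edgeR adjusted p = 0.0177). It did not pass without litter 2 (edgeR adjusted p = 0.0623) or without litter 3 (edgeR adjusted p = 0.169). Irf1 (ENSMUSG00000018899), a factor that responds above all to interferon gamma, went from 11.1, 7.0 and 9.39 CPM to 7.84, 5.15 and 7.55 CPM (log2 fold change -0.42 ± 0.12, edgeR adjusted p = 0.0193). Without litter 1 it did not pass (edgeR adjusted p = 0.154). Irf9 (ENSMUSG00000002325), the DNA-binding part of ISGF3, was at 50.2, 28.7 and 47.3 CPM at low and 47.4, 25.9 and 39.6 CPM at high adhesion. Its log2 fold change of -0.16 ± 0.06 did not pass (edgeR adjusted p = 0.117), though each litter was slightly lower at high adhesion.

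**Figure D2:**
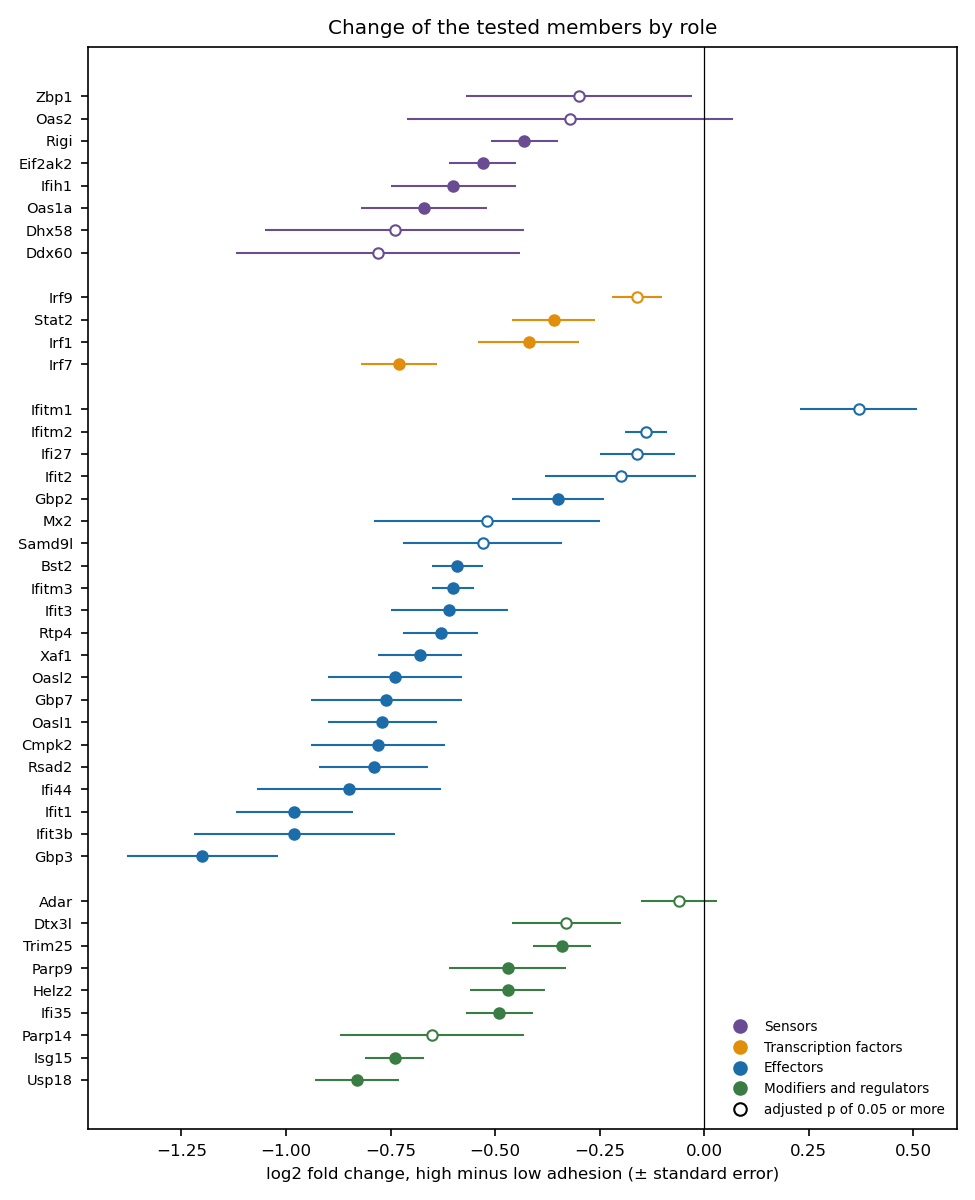
Log2 fold change, high minus low adhesion, of the 42 tested members, grouped by role and ordered within each role, with standard errors as bars. Filled points passed an edgeR adjusted p of 0.05; 41 of the 42 points lie below 0, from -0.06 for Adar to -1.20 for Gbp3, and Ifitm1 lies at 0.37.

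Of the 21 tested effectors 15 fell and none was called higher, with a median log2 fold change of -0.63. Ifitm3 (ENSMUSG00000025492), a membrane protein that blocks the entry of enveloped viruses, had the lowest adjusted p of all members. It stood at 424, 222 and 391 CPM in litters 1, 2 and 3 at low adhesion and at 307, 148 and 231 CPM at high adhesion. The fall was 1.52-fold (log2 fold change -0.60 ± 0.05, n = 3 each, edgeR adjusted p = 5.34e-09). Bst2 (ENSMUSG00000046718) encodes tetherin, which holds budding virions at the cell surface, and went from 141, 40.4 and 120 CPM to 101, 29.1 and 69.6 CPM (edgeR adjusted p = 2.25e-07). In both genes litter 2 was low on either substrate, and the step between substrates was largest in litter 3. Xaf1 (ENSMUSG00000040483), whose product antagonises the apoptosis inhibitor XIAP, went from 24.7, 7.0 and 20.3 CPM to 15.2, 5.48 and 11.7 CPM (edgeR adjusted p = 2.08e-05). Gbp3 (ENSMUSG00000028268), a guanylate-binding GTPase, had the largest fall of all members, 2.30-fold, from 7.03, 1.90 and 6.06 CPM to 3.57, 0.886 and 2.07 CPM (log2 fold change -1.20 ± 0.18, edgeR adjusted p = 3.06e-05).

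Of the 3 interferon-induced transmembrane genes of the list only Ifitm3 passed. Ifitm2 (ENSMUSG00000060591) was at 89.0, 96.4 and 95.7 CPM at low and 89.1, 79.9 and 86.3 CPM at high adhesion, with a log2 fold change of -0.14 ± 0.05 that did not pass (edgeR adjusted p = 0.116). Litter 1 showed no step between substrates, and without litter 1 the gene passed (log2 fold change -0.21, edgeR adjusted p = 0.0443). Ifitm1 was the only tested member with a fold change above 0. It was at 7.03, 4.34 and 4.32 CPM at low and 10.4, 4.19 and 5.77 CPM at high adhesion, higher in litters 1 and 3 and not in litter 2 (log2 fold change 0.37 ± 0.14, edgeR adjusted p = 0.0991). Without litter 2 it passed as higher (log2 fold change 0.51, edgeR adjusted p = 0.0265). The differences between the 3 genes were not tested. Transcripts of Ifitm2 and Ifitm3 were 72.9% identical over 579 aligned columns, and counts of all 3 genes were fractional in 3 to 5 libraries, so their values are uncertain if reads were shared between them.

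Ifitm1 and the effectors named from here on are outside the rule for named genes, and their values had been seen when they were picked. The Ifit genes encode proteins that bind foreign RNA ends and block translation. Ifit1 fell 1.97-fold, from 25.6, 6.69 and 18.3 CPM to 16.0, 3.87 and 6.14 CPM (log2 fold change -0.98 ± 0.14, n = 3 each, edgeR adjusted p = 0.00037). Ifit3 went from 12.1, 2.74 and 3.48 CPM to 7.92, 1.85 and 2.22 CPM, and Ifit3b from 3.82, 0.989 and 2.50 CPM to 2.02, 0.805 and 0.888 CPM. Both passed (edgeR adjusted p = 0.00543 and 0.00775), but neither did without litter 1 (edgeR adjusted p = 0.139 and 0.0786), and Ifit3b did not without litter 3 either (edgeR adjusted p = 0.111). Their transcripts were 97.8% identical over 1700 aligned columns, so the split of reads between them is uncertain. Ifit2 did not pass, at 2.05 to 4.89 CPM over the libraries and a log2 fold change of -0.20 ± 0.18 (edgeR adjusted p = 0.576).

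Most other effectors fell by similar amounts. The radical SAM enzyme viperin (Rsad2) and its neighbour Cmpk2, a nucleotide kinase, make and supply an antiviral nucleotide, and they had log2 fold changes of -0.79 ± 0.13 and -0.78 ± 0.16. Those of the oligoadenylate synthetase-like genes Oasl1 and Oasl2 were -0.77 ± 0.13 and -0.74 ± 0.16, that of the chaperone-like gene Rtp4 was -0.63 ± 0.09 and that of Ifi44 was -0.85 ± 0.22. Among further guanylate-binding genes, Gbp7 had -0.76 ± 0.18 and Gbp2 -0.35 ± 0.11. These 8 genes passed, with edgeR adjusted p from 4.80e-05 for Rtp4 to 0.0444 for Gbp2. Oasl2, Ifi44, Gbp2 and Gbp7 did not pass without litter 3 (edgeR adjusted p = 0.106, 0.556, 0.383 and 0.149), and Gbp2 did not pass without litter 2 (edgeR adjusted p = 0.0951). The GTPase gene Mx2, the translation inhibitor gene Samd9l and Ifi27 did not pass, with log2 fold changes of -0.52, -0.53 and -0.16. Ifi27 varied little, between 11.1 and 16.4 CPM over the 6 libraries. Mx1, whose product inhibits influenza virus replication, was at 0.152 to 1.15 CPM and was not tested.

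Of the 9 modifiers and regulators 6 fell, with a median log2 fold change of -0.47. Isg15 (ENSMUSG00000035692) encodes a ubiquitin-like protein that is attached to other proteins, and its promoter stretch above holds 3 matches to the response element. It went from 192, 48.6 and 161 CPM in litters 1, 2 and 3 to 130, 30.8 and 81.8 CPM (log2 fold change -0.74 ± 0.07, n = 3 each, edgeR adjusted p = 5.14e-07). Usp18 (ENSMUSG00000030107), which removes ISG15 from proteins and dampens the interferon receptor, went from 27.9, 6.16 and 25 CPM to 17.9, 3.22 and 12.3 CPM (log2 fold change -0.83 ± 0.10, edgeR adjusted p = 1.18e-06). In both genes the high adhesion libraries of litters 1 and 3 exceeded the low adhesion library of litter 2, so the groups overlapped. Ifi35 (ENSMUSG00000010358), a leucine zipper protein, went from 33.7, 15.4 and 27.9 CPM to 24.6, 11.4 and 18.9 CPM (edgeR adjusted p = 7.63e-05). The helicase and transcriptional coactivator gene Helz2 (ENSMUSG00000027580) went from 23.7, 12.0 and 21.3 CPM to 17.3, 9.74 and 14.1 CPM (edgeR adjusted p = 0.000593). Trim25 (ENSMUSG00000000275), a ubiquitin ligase that activates RIG-I, went from 48.2, 23.7 and 40.1 CPM to 37.4, 18.0 and 33.1 CPM, a 1.27-fold fall (edgeR adjusted p = 0.000999).

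Parp9 and Dtx3l encode the parts of 1 complex and are neighbouring genes. Parp9 passed with a log2 fold change of -0.47 ± 0.14 (edgeR adjusted p = 0.0386), but not without litter 2 (edgeR adjusted p = 0.0631) or litter 3 (edgeR adjusted p = 0.515). Dtx3l had -0.33 ± 0.13 (edgeR adjusted p = 0.134) and Parp14, a further ADP-ribosyltransferase gene, -0.65 ± 0.22 (edgeR adjusted p = 0.0562). Adar, which edits adenosine to inosine in double-stranded RNA, was at 21.3, 14.5 and 20.5 CPM at low and 23, 13.9 and 17.3 CPM at high adhesion. Its log2 fold change of -0.06 ± 0.09 did not pass (edgeR adjusted p = 0.769) and was 0.04 without litter 3.

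Between the roles, the share called lower was 50% for sensors, 75% for transcription factors, 71.4% for effectors and 66.7% for modifiers and regulators. Over all tested genes it was 4.83%. Called falls of at least 1.5-fold were 14 of 21 among effectors, 2 of 8 among sensors, 1 of 4 among transcription factors and 2 of 9 among modifiers and regulators. The differences between roles were not tested. Calls also differed by level. Over all roles, 21 of the 27 tested members with a mean of at least 5 CPM were called. Of the 15 tested members below that level 7 were called. The median log2 fold change was -0.49 for the former and -0.67 for the latter, so fewer calls did not go with a smaller median fall. By promoter, 15 of 17 tested members with the response element core in their window were called lower, with a median log2 fold change of -0.61. Of 16 tested members with a window but no such match 10 were called lower, with a median of -0.48. The difference by promoter was not tested, and level was not taken into account. Among the members with the core, the matches of Ifih1, Rigi, Eif2ak2 and Ifitm3 lie after the gene start.

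Within litters most members had lower values at high adhesion. Lower values at high adhesion in 3 of 3 litters were found for 35 of the 42 tested members, beside 20.4% of all tested genes. In litter 1 the level at high adhesion was lower for 37 of the 42 members, in litter 2 for 40 and in litter 3 for 41, beside 49.2%, 50.3% and 50.4% of all tested genes. The median within-litter log2 ratio, computed after adding 0.5 CPM, was -0.44, -0.46 and -0.64 in litters 1, 2 and 3. Effectors had medians of -0.47 and -0.46 in litters 1 and 2 and of -0.78 in litter 3. With 1 library of each kind per litter, a difference in response between litters could not be tested. Without litter 3 the number of members called fell from 28 to 20 and the median log2 fold change was -0.46.

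**Figure D3:**
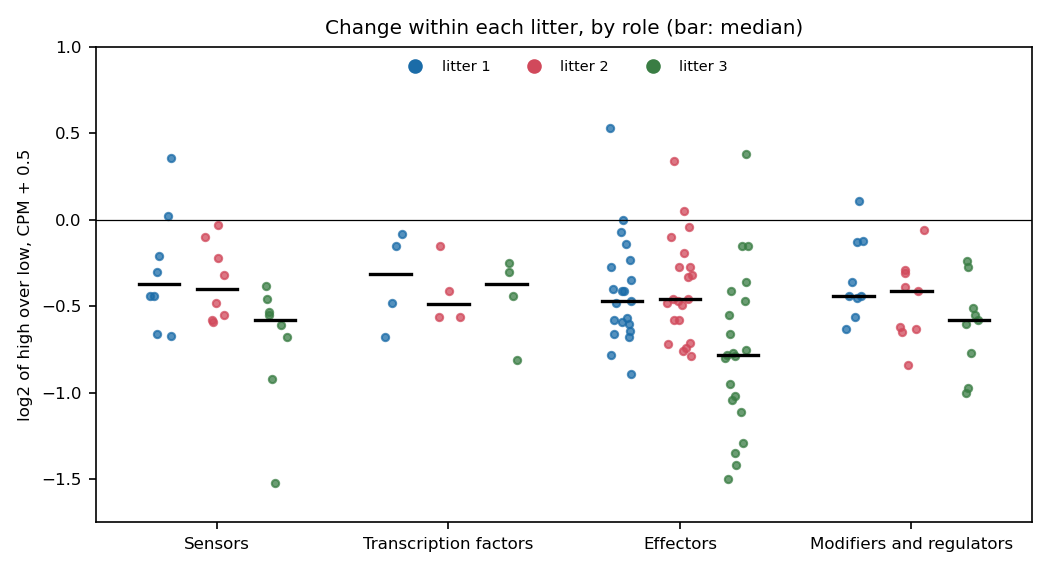
Log2 ratio of high over low adhesion within each litter, after adding 0.5 CPM, for each tested member by role; bars are medians. The median lies below 0 for each role in each litter, and for effectors they are -0.47, -0.46 and -0.78 in litters 1, 2 and 3.

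The groups as a whole did overlap. For 0 of the 42 tested members did all 3 high adhesion libraries lie below all 3 low adhesion libraries, beside 7.67% of all tested genes, and for 0 of the 42 did they lie above, beside 7.95%. This went with large differences between litters. In the edgeR test of the litter terms 37 of the 42 tested members passed, beside 17.9% of all tested genes. Each of the 42 was lowest in litter 2, beside 37.3% of all tested genes, and 39 were highest in litter 1, beside 36.1%. By the mean of its 2 libraries, litter 1 was a median of 2.51-fold above litter 2 over the members, compared with the 1.51-fold median difference between the substrates. Isg15 had litter means of 161, 39.7 and 121 CPM, Usp18 of 22.9, 4.69 and 18.6 CPM and Ifi44 of 5.77, 0.776 and 5.31 CPM. Ifi44 thus differed 7.43-fold between litters 1 and 2 and 1.09-fold between litters 1 and 3. Fitted on 2 litters at a time, 41 of 44 members differed between litters 1 and 2, beside 17.9% of all genes, 31 of 41 between litters 2 and 3, beside 9.92%, and 17 of 44 between litters 1 and 3, beside 9.18%.

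The 5 members that did not pass the litter test were Ifitm2, Ifi27, Dhx58, Ddx60 and Oas2. For Ifitm2 the litter means were 89.0, 88.2 and 91.0 CPM (edgeR adjusted p = 0.884). The other members had litter 1 above litter 2 by 1.56-fold (Irf1 and Adar) to 7.43-fold (Ifi44). Ifit3 had litter means of 10.0, 2.29 and 2.85 CPM, so that its litter 3 lay near litter 2, whereas those of Ifit3b were 2.92, 0.897 and 1.69 CPM and those of Ifit1 20.8, 5.28 and 12.2 CPM. The labels give a number for each litter and no other property.

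**Figure D4:**
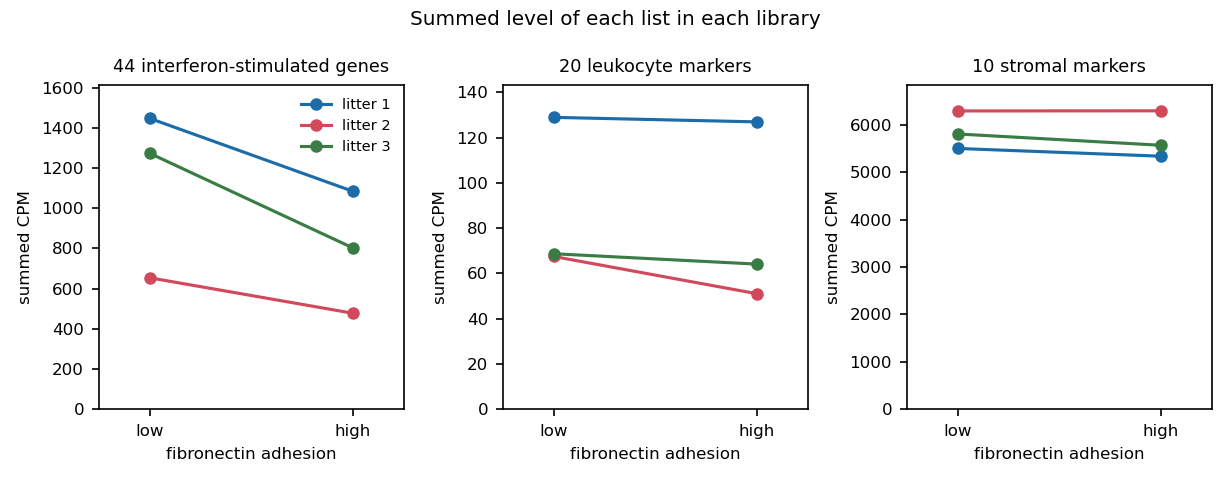
Summed CPM of the 44 members, of 20 leukocyte markers and of 10 stromal markers in each library, with the 2 libraries of a litter joined by a line and each axis starting at 0. The member sum is lower at high adhesion in each litter, from 1448 to 1084, 654 to 477 and 1274 to 802 CPM, and the leukocyte sum goes from 129 to 127, 67.5 to 51.0 and 68.7 to 64.1 CPM in litters 1, 2 and 3.

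Leukocytes also express interferon-stimulated genes, and their markers were read in the same libraries. Of 20 listed markers 15 were tested, with a median log2 fold change of -0.19. Of these 1 was called lower (Cd14), beside 4.83% of all tested genes, and 1 higher (Lyz2), beside 4.71%. At 6.67% each, these shares were close to those of all tested genes. Log2 fold changes below 0 were found for 13 of the 15 markers, beside 7477 of all 14834 tested genes. In the litter test 13 of the 15 passed, beside 17.9% of all tested genes. By litter means 15 of the 15 were highest in litter 1, beside 36.1% of all tested genes, and 14 lowest in litter 2, beside 37.3%. Siglech and Cd3e, markers of plasmacytoid dendritic cells and T cells, had at most 3 counts each over all libraries. The summed leukocyte level was 129, 67.5 and 68.7 CPM at low and 127, 51.0 and 64.1 CPM at high adhesion in litters 1, 2 and 3. The summed level of the 44 members was 1448, 654 and 1274 CPM at low and 1084, 477 and 802 CPM at high adhesion. Both sums were lower at high adhesion in each litter, and both were highest in litter 1 and lowest in litter 2 on either substrate. The size of the step varied by litter. In litter 1 the leukocyte sum went from 129 to 127 CPM and the member sum from 1448 to 1084 CPM. In litter 2 these sums went from 67.5 to 51.0 and from 654 to 477 CPM. In litter 3 they went from 68.7 to 64.1 and from 1274 to 802 CPM. At low adhesion litters 3 and 2 were close for the leukocyte sum (68.7 and 67.5 CPM) and not for the member sum (1274 and 654 CPM). At high adhesion litter 3 lay above litter 2 for the leukocyte sum (64.1 and 51.0 CPM) and for the member sum (802 and 477 CPM). The part of leukocytes in the result was not tested. Of 10 epithelial markers 9 were tested. Of these 4 were called higher, beside 4.71% of all tested genes, and 1 lower, beside 4.83%. The 10 summed to 337 to 629 CPM at low and 507 to 916 CPM at high adhesion. Endothelial markers summed to 73.2 to 93.5 CPM at low and 79.2 to 106 CPM at high adhesion. Of 8 tested endothelial markers 1, Flt1, was called higher, beside 4.71% of all tested genes, and 1, Emcn, lower, beside 4.83%. Nephron progenitor markers summed to 90.6, 63.1 and 83.3 CPM at low and 106, 73.0 and 96.0 CPM at high adhesion in litters 1, 2 and 3. All 6 of them were lowest in litter 2 by litter means, beside 37.3% of all tested genes, and 4 passed the litter test, beside 17.9%. Of the 6 genes 2, Osr1 and Cited1, were called higher at high adhesion, beside 4.71% of all tested genes. Of 4 tested erythroid markers none passed the adhesion or the litter test in edgeR with all 3 litters. None was under an unadjusted p of 0.05 for adhesion in that fit or passed in DESeq2 or limma-voom. The erythroid list summed to 257, 234 and 164 CPM at low adhesion in litters 1, 2 and 3. At high adhesion it summed to 133, 152 and 272 CPM, so litter 3 went the other way. Without litter 3 the globin genes Hba-a1, Hbb-bt and Hbb-bs passed as lower (edgeR adjusted p = 4.52e-22, 1.04e-16 and 7.34e-24). Slc4a1 did not (edgeR adjusted p = 0.926). The part of the stromal, epithelial, endothelial, nephron progenitor and erythroid markers in the result was not tested.

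The rest of the pathway was read from 6 further lists. Of 11 interferon genes, 9 were at 0 in every library, Ifnb1 had 3 counts over the 6 libraries and Ifnl2 had 2, never more than 1 in a library. A count of 0 allows up to 3 counts, or 0.222 to 0.238 CPM, per library, so a difference in ligand transcripts was not detectable at this depth. Of 8 tested receptor and kinase genes 1, Jak1, was called lower, beside 4.83% of all tested genes, and the median of the list was -0.11. The log2 fold change of Jak1 was -0.16 ± 0.05 (edgeR adjusted p = 0.02). Jak1 did not pass without litter 1 (edgeR adjusted p = 0.256) or in DESeq2 (adjusted p = 0.228). The receptor genes Ifnar1 and Ifnar2 had log2 fold changes of -0.13 ± 0.06 and -0.13 ± 0.08 and did not pass (edgeR adjusted p = 0.239 and 0.333). Ifnar1 was at 37.6 to 42 CPM at low and 34.6 to 37.1 CPM at high adhesion. None of the tested receptors and kinases passed the litter test, beside 17.9% of all tested genes. In this list the groups did not overlap for Ifnar1 and Ifnar2, lower at high adhesion, and for Ifngr1, higher, beside 7.67% and 7.95% of all tested genes.

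Among 6 further tested STAT and IRF genes 2 fell, beside 4.83% of all tested genes called lower. Stat3, which signals for the interleukin-6 family, was at 78.3, 88.8 and 83.3 CPM at low and 66.1, 76.4 and 67.8 CPM at high adhesion, a 1.19-fold fall (edgeR adjusted p = 0.00169). It did not pass in DESeq2 (adjusted p = 0.0564). Irf3, the factor through which sensors first induce interferon beta, had a log2 fold change of -0.02 ± 0.07 (edgeR adjusted p = 0.924).

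The list of the induction pathway leaves out the sensor genes Rigi and Ifih1, which are counted among the members and fell. Of its 13 tested genes, from other sensors to kinases, none was called lower, beside 4.83% of all tested genes. Only 1, the ubiquitin ligase gene Traf6, was called higher (1.29-fold, edgeR adjusted p = 0.0205). That is 7.69%, near the 4.71% of all tested genes. Traf6 did not pass in DESeq2 (adjusted p = 0.485) nor without litter 1 or litter 3 (edgeR adjusted p = 0.139 and 0.164). None of 8 negative regulators passed in edgeR with all 14834 genes, beside 9.55% of these. The median log2 fold change of the 8 was 0.00. The most abundant by CPM, Irf2bp2 and Ptpn2, had log2 fold changes of -0.05 and 0.02. At an adjusted p of 0.05 no gene of this list was called by DESeq2 or limma-voom either, and 2 had an unadjusted p under 0.05 in edgeR. Socs3, a feedback inhibitor of JAK kinases, passed as higher with only genes of at least 5 CPM (log2 fold change 0.27, edgeR adjusted p = 0.0398).

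A list of 49 other interferon-stimulated genes, partly known from earlier results of these data, had 37 tested members. Of these 14 fell (37.8%), beside 4.83% of all tested genes, and none was called higher, beside 4.71%. Their median log2 fold change was -0.38. Lowest in adjusted p were Ifi203 (1.58-fold) and Ifi204 (1.41-fold), DNA-binding proteins of the PYHIN family, the secreted glycoprotein gene Lgals3bp (1.56-fold) and Tor3a (1.6-fold), with edgeR adjusted p from 3.15e-06 to 0.000776. Tor3a did not pass in DESeq2 (adjusted p = 0.155), whereas Ifi203, Ifi204 and Lgals3bp did (DESeq2 adjusted p = 0.000142, 0.0053 and 0.00109). Ifi203 and Ifi204 had fractional counts in 6 of 6 libraries, and where the fractions come from was not tested. Of the 37 genes 32 passed the litter test, beside 17.9% of all tested genes.

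**Figure D5:**
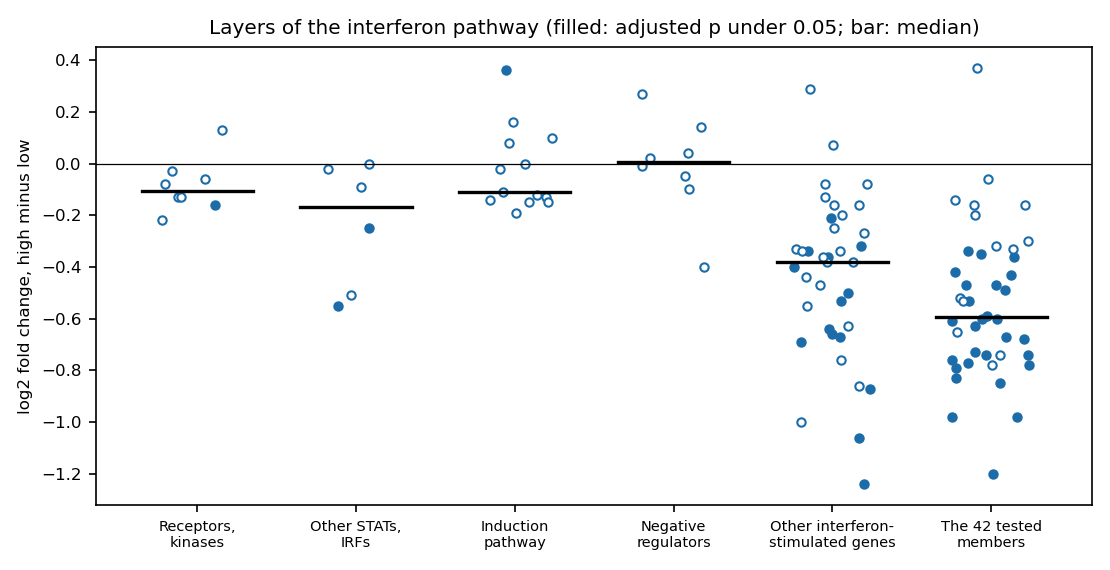
Log2 fold change, high minus low adhesion, of the tested genes of 5 further pathway lists and of the 42 tested members; filled points passed an edgeR adjusted p of 0.05 and bars are medians. The medians are -0.11 for receptors and kinases, -0.17 for other STAT and IRF genes, -0.11 for the induction pathway, 0.00 for negative regulators, -0.38 for other interferon-stimulated genes and -0.60 for the members.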

How the data were processed

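The authors deposited 1 table of estimated counts per gene and the CPM made from them for 6 libraries of captured mRNA. Per the submitters' processing notes the tools were STAR 2.7.11, featureCounts of Subread 2.1.1, fastp 0.24.0, SAMtools 1.22.1, MultiQC 1.32 and FastQC 0.12.1, with genome build GRCm39. The deposited counts were fractional in 7736 to 8256 genes per library and were rounded here. The rule for dividing shared reads was not given in the sources used here, nor the strand setting. The deposited CPM values equal each count scaled to its library's total. CPM in the report were recomputed with TMM factors, which lay between 0.988 and 1.011.

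Libraries were grouped by the labels. Genes passing edgeR's filterByExpr with a minimum count of 10 (14834 genes) were fitted with edgeR 4.0.16 in R 4.3.3, by the robust quasi-likelihood test with litter and adhesion as terms. Benjamini-Hochberg adjustment ran over the 14834 genes, with a threshold of 0.05, and the scripts were tested on simulated data. Litter numbers come from the labels, which give each number as a litter. Deviations from the group means correlated between same-numbered libraries (r = 0.58, 0.58 and 0.36) and between other pairs at -0.49 to -0.08. Kidneys were pooled, per the labels, so p-values measure the spread over 3 litters and not over single embryos.

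The members and lists were chosen with earlier results of these data known. Values in every library are given for the 4 members of lowest adjusted p and the 2 of highest mean CPM in each role. Of each further pathway list up to 4 called genes of lowest adjusted p are named, or the 2 of highest CPM where none was called, with Ifnar1, Ifnar2 and Ifnb1; some genes of these lists are not reported here. Promoter windows came from RefSeq on GRCm38.p6, a build other than that of the counts, and were matched by symbol (Rigi as Ddx58). Transcript identities came from local alignment of the longest protein-coding GENCODE M21 transcripts. DESeq2 1.42.0, limma 3.58.1 (voom), other filters, scaling and rounding, the fit without litter, and leaving out each litter were alternatives.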

Additional observations from a re-analysis of the deposited data

How the results depend on the processing

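Without the replicate block the number of members called lower was 0, and so were the numbers of sensors, transcription factors, effectors, modifiers and regulators, and other pathway genes called lower or higher. In that fit the lowest adjusted p of a member was 0.56 in edgeR, and the biological coefficient of variation was 10.7%, compared with 4.1% with the block. DESeq2 with the block called 12 members lower (1 sensor, 1 transcription factor, 7 effectors, 3 modifiers and regulators), 4 other pathway genes lower and 0 higher, and gave no adjusted p for 7 members. With only genes of at least 5 CPM, 2 sensors were called lower, 2 other pathway genes higher, and the members' median log2 fold change was -0.49. Leaving out 1 litter at a time gave 20 to 26 members lower, 0 to 1 members and effectors higher, 0 to 2 other pathway genes higher, and 17 to 41 members that differed between litters. The median log2 fold change was then -0.66 to -0.46 over the members and -0.62 to -0.41 over the sensors. Over these fits the log2 fold change of Oas2 ran from -0.34 to 0.34 and that of Adar from -0.16 to 0.04, both above 0 without litter 3 and neither called. The cause of these shifts was not tested, beyond fewer libraries and genes in these fits. Limma-voom and the fit without robust estimation each called 26 members lower. DESeq2 size factors, no filter and truncated counts each gave 28, all of them among the 28 of the report. Depth limits the ligands and the members under 5 CPM.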

Other observations

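Among the other interferon-stimulated genes, 3 of 37 tested had all high adhesion libraries below all low adhesion libraries, a share close to the 7.67% of all tested genes, and they were chosen after their values were seen. Herc6, the ligase that attaches ISG15 in mice, went from 4.43, 2.74 and 2.57 CPM in litters 1, 2 and 3 to 1.24, 1.93 and 1.48 CPM (log2 fold change -1.06 ± 0.23, edgeR adjusted p = 0.00279). Ube2l6, the conjugating enzyme of the same reaction, went from 5.35, 4.72 and 7.27 CPM to 3.73, 2.90 and 2.89 CPM (edgeR adjusted p = 0.000782). The RNA helicase gene Mov10 went from 30.0, 26.7 and 32.9 CPM to 23.3, 21.4 and 25.2 CPM (edgeR adjusted p = 0.00106). Herc6 did not pass the adhesion test without litter 1 (edgeR adjusted p = 0.163) and Ube2l6 did not without litter 3 (edgeR adjusted p = 0.054). Ube2l6 and Mov10 did not pass in DESeq2 (adjusted p = 0.12 and 0.106), which gave no adjusted p for Herc6. Uba7, the activating enzyme of the reaction, had a log2 fold change of -0.27 ± 0.20 and did not pass (edgeR adjusted p = 0.503). Counts of Herc6 and Ube2l6 were fractional in 5 and 6 of the 6 libraries, and where the fractions come from was not tested.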
